A study of Homo sapiens with 23 samples.

Results

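The early S start sites of K562 cells were divided by whether the same place was also called later in S phase. K562 is an established chronic myelogenous leukemia line. Of the 73296 peaks in its early S nascent-strand list on chromosomes 1 to 22 and X, 20174 (27.5%, 95% Wilson interval 27.2 to 27.8) shared no base pair with any peak of the middle S or late S list. These are called early S alone peaks here, and the other 53122 are called shared peaks. The peaks were chosen by the called positions of the 3 K562 nascent-strand lists, so their number and their reads in the early S list are descriptions. All lists together held 1741457 peaks in 21 libraries.

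The study mapped replication start sites and chromatin-bound proteins in K562 and in HCT116, an established colon carcinoma line. Each of its 23 samples was a group of 1 library, so no p-value was computed. Intervals cover counting error only, and every difference is a difference between libraries. The K562 groups used here were nascent strands of early, middle and late S, SIRT1 phosphorylated at T530 (pSIRT1) in unfractionated cells and in 5 fractions from G1 through S to G2, and MCM2 phosphorylated at S139 (pMCM2) in the same 5 fractions. K562 cells carried no stated treatment, and the labels do not describe how the phase fractions were obtained. Nascent strands of HCT116 came from SIRT1-depleted cells, from depleted cells rescued with wt SIRT1, from depleted cells rescued with T530A SIRT1, and from WT cells given 200 nM aphidicolin for 24 h and released for 24 h. None of the 23 samples is a nascent-strand library of WT HCT116 cells without aphidicolin. How SIRT1 was depleted or restored, and whether a line is 1 clone, is not given in the sources used here. WT HCT116 also gave ChIP lists of pSIRT1, pMCM2 and histone H4 acetylated at lysine 16 (H4K16ac).

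Replication origins are prepared in G1, when the MCM2-7 helicase is loaded on DNA, and only some of the loaded sites start copying in a given S phase. Sites in open, acetylated chromatin tend to start early, and others start later or only when forks slow. Nascent strands are short new DNA that still carries an RNA primer and so survives λ-exonuclease. MCM2 is a helicase subunit and a target of the kinases that activate origins. SIRT1 is an NAD-dependent deacetylase that can remove the acetyl group of H4K16, a mark of open chromatin.

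The peak lists were of like size in the 3 phases. Middle S had 67803 peaks, of which 17552 (25.9%) met neither of the other phases, and late S had 81959, of which 27191 (33.2%) did so. These middle S alone and late S alone peaks serve below as the most similar sets. Reads within peaks summed to 5870637 in early S, 6793423 in middle S and 6810838 in late S. The depth of the libraries outside peaks is unknown. Of the shared early S peaks, 9339 met middle S only, 13073 met late S only and 30710 met both. Late S therefore took more of the single matches than middle S, and its list is also the longer one.

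Early S alone peaks were smaller and weaker than shared peaks as a whole. Their median width was 1800 bp, against 2200 bp for shared peaks and 1800 bp for both middle S alone and late S alone peaks. They held a median of 49 reads (10th to 90th percentile 33 to 82, range 19 to 1241), against 66 for shared peaks (39 to 153). Per length the gap was smaller, with a median of 29.5 reads per kb against 32.7. The most similar sets were close to these values. Late S alone peaks held a median of 51 reads and 30 reads per kb in their own list. Early S peaks shared with late S only held 54 reads and 30 reads per kb, at a median width of 1800 bp. Middle S alone peaks stood higher, with 56 reads and 32.9 reads per kb. The early S alone class made up 27.5% of the peaks, covered 38.5 Mb and held 19.1% of the reads in early S peaks. When all early S peaks were ranked by reads, 47.9% of the lowest decile (19 to 36 reads) were early S alone, and only 5.95% of the highest decile (135 to 12037 reads). By width the share went from 37.6% of peaks of up to 1 kb to 4.81% of peaks over 6 kb. Within a width class the reads still differed. Peaks over 2 and up to 3 kb wide held a median of 60 reads when alone and 74 when shared. Since the classes differ in both reads and width, the values below are also given within read and width classes.

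**Figure D1:**
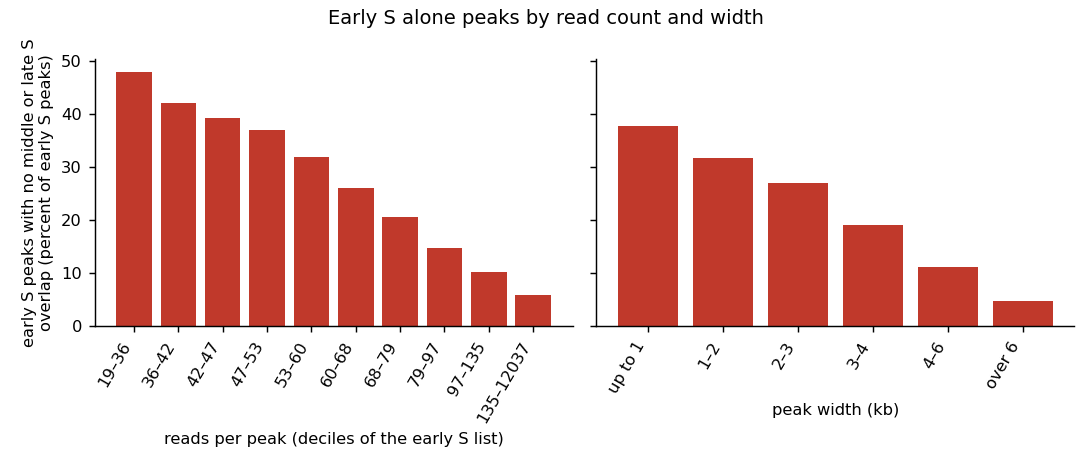
Share of K562 early S peaks that overlap no middle S or late S peak (percent, vertical axis), by deciles of the read count (left) and by peak width in kb (right). Each bar is the share in 1 library, and the share goes from 47.9% in the decile with the fewest reads to 5.95% in the decile with the most.

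By the rule, no early S alone peak overlaps a peak of the middle S or late S list. The median gap was 11.8 kb to the nearest peak of the middle S list and 9.8 kb to that of the late S list. To the nearest other early S peak it was 10.2 kb, so the gaps to single lists were alike. With both later lists pooled, the median gap to the nearest middle S or late S peak was 6.6 kb. Within 1 kb of such a peak lay 9.37% of the class, and 42.5% lay within 5 kb. Only 267 peaks were more than 100 kb from any middle or late S peak. The rule separates members from non-members by 1 bp, so the peaks at its edge differ little in position. There were 152 members that touched a later peak with no shared base, with a median of 53 reads, and 410 non-members that shared a single 200 bp step, with a median of 47 reads. The touching members with most reads were chr17:46618601-46626000 (229 reads) and chr10:60068201-60073600 (152 reads). The non-members with most reads among those sharing 200 bp were chr12:101560401-101566400 (189 reads) and chr1:153395801-153401400 (157 reads).

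Early S alone peaks were sparse, and 46.7% of them stood singly between shared peaks. The median gap from one to the next of its class was 37.6 kb, against 9.2 kb between shared peaks, which are 53122 in number. Middle S alone peaks were 38.8 kb apart and late S alone peaks 26.4 kb apart. To the nearest early S peak of either class the median gap was 10.2 kb from an early S alone peak and 6.6 kb from a shared peak. Along the chromosome, 32.4% of the neighbours of early S alone peaks were themselves early S alone, against 25.7% of the neighbours of shared peaks. The class as a whole is 27.5% of the list, so members stood next to one another slightly more often than their share of it. The 20174 peaks fell into 13642 runs of successive members, of which 9414 were single peaks. Runs of at least 5 numbered 199 and held 1138 peaks.

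The regional spread of the class was more even than that of the shared peaks. In 1 Mb bins counted from the start of each chromosome, 2745 of 2888 bins (95.05%) held at least 1 early S alone peak. The median was 7 per bin (quartiles 3 and 10, highest 24). The coefficient of variation across bins was 0.644, against 0.831 for shared peaks, 0.754 for middle S alone and 0.693 for late S alone. The 10% of bins richest in early S peaks held 16.6% of the early S alone peaks (16.1 to 17.1) and 27.5% of the shared peaks. The share of early S peaks that were alone accordingly went from 42.5% in the decile of bins with the fewest early S peaks to 18.7% in the decile with the most. Ranking bins by early S peaks uses both classes, so this is a description of where the list is dense.

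Ranked by HCT116 H4K16ac, which the rule did not use, the bins separated the 3 alone classes. The decile of bins with least H4K16ac length (up to 3.83 kb per Mb) held 7.44% of early S alone peaks, 2.997% of middle S alone peaks and 8.01% of late S alone peaks. The ninth decile (248.0 to 375.5 kb per Mb) held 12.6%, 16.2% and 8.27%, and the top decile held 8.93%, 12.5% and 5.47%. Early S alone peaks thus varied least over the deciles, between 7.44 and 12.6%. Middle S alone peaks were concentrated at the acetylated end and late S alone peaks in the lower-middle deciles. Across the 2888 bins the Spearman correlation of the number of peaks with H4K16ac length was 0.21 for early S alone, 0.60 for middle S alone, -0.05 for late S alone and 0.32 for shared peaks. The numbers of early S alone peaks correlated with shared peaks at 0.70, with late S alone at 0.58 and with middle S alone at 0.53. Bins share library, mappability and copy number, so these values are descriptions and carry no p.

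**Figure D2:**
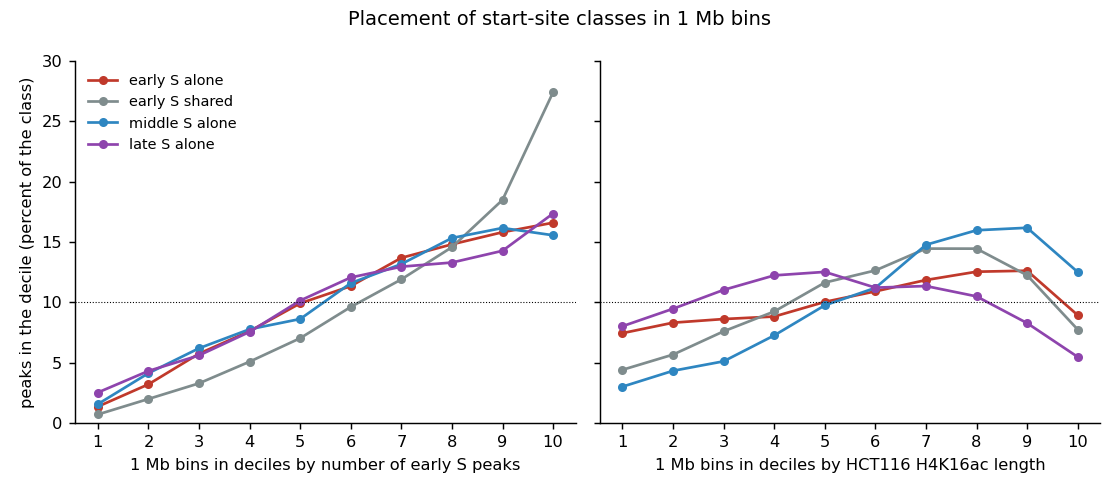
Percent of each K562 start-site class (vertical axis) falling in deciles of 2888 1 Mb bins ranked by number of early S peaks (left) and by HCT116 H4K16ac covered length (right); the dotted line marks an even 10%. The early S alone class reaches 16.6% in the decile richest in early S peaks where shared peaks reach 27.4%, and stays between 7.44 and 12.6% over the H4K16ac deciles.

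Single bins showed how far the balance shifts locally. Among 1608 bins with at least 20 early S peaks the share alone had a median of 26.1% and ranged from 0 to 68.2%. It was over 50% in 40 bins and 0 in 3. The bin with most members was chr14:75000001-76000000, where 24 of 42 early S peaks were alone and H4K16ac covered 277.7 kb. The next 4, chr1:52000001-53000000, chr1:240000001-241000000, chr5:8000001-9000000 and chr7:114000001-115000000, had 22 members each among 54, 56, 63 and 54 early S peaks. Their H4K16ac lengths were 113.1, 3.15, 5.21 and 15.0 kb, so a high number of members occurred with both long and short H4K16ac coverage.

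The bins with the highest share of members were equally unlike one another. In chr17:42000001-43000000, 15 of 22 early S peaks were alone and H4K16ac covered 444.0 kb. In chr11:40000001-41000000, 17 of 25 were alone and H4K16ac covered 0 kb. The next were chr2:40000001-41000000 with 13 of 20, and bins of chromosomes 8 and 18 with 15 of 24 each. At the other end, 0 of 53 early S peaks were alone in chr2:149000001-150000000, 0 of 35 in chr13:90000001-91000000 and 0 of 38 in chr19:51000001-52000000. Next came chr13:91000001-92000000 with 1 of 55 and chr13:93000001-94000000 with 1 of 35. The low bins of chromosome 13 had 0 to 9.49 kb of H4K16ac, while the low bin of chromosome 19 had 504.3 kb. The median over all 2888 bins was 61.3 kb.

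By chromosome the share of early S peaks that were alone lay between 22.6% on chromosome 1 and 37.2% on chromosome 15, with a median of 28.6%. Late S alone peaks outnumbered early S alone peaks on 21 of 23 chromosomes, and numbered 27191 against 20174 in all. The ratio of late S alone to early S alone peaks had a median of 1.35 over the chromosomes and was highest on chromosome 5, at 1.59. It was below 1 on chromosome 17 (0.882) and chromosome 22 (0.824). K562 cells are known for a rearrangement of chromosomes 9 and 22. The share alone on these was 28.0% and 35.8%.

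A smaller share of early S alone peaks than of shared peaks was present in HCT116, by a factor of about the same size in each list. The SIRT1-depleted list overlapped 4687 of them (23.2%, 22.7 to 23.8), against 45.7% of shared peaks and 39.5% of all early S peaks. The wt rescue list overlapped 4737 (23.5%), against 45.9% of shared peaks and 39.8% of all. In the T530A rescue list the overlap was 5331 (26.4%), against 52.3% of shared peaks and 45.2% of all, and in the aphidicolin list 5089 (25.2%), against 49.3% and 42.7%. The ratio of the early S alone share to the shared share was 0.505 to 0.511 in the 4 lists. The lists themselves held 109990, 74479, 103974 and 96993 peaks in that order, with median widths of 2400, 3800, 2400 and 2400 bp, so shares are read across classes within a list and not across lists.

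At least 1 of the 4 HCT116 lists contained 9726 early S alone peaks (48.2%, 47.5 to 48.9), against 74.3% of shared peaks and 67.2% of all early S peaks. All 4 lists contained 1415 (7.01%), against 23.2% of shared peaks and 18.7% of all. The remaining 10448 (51.8%) were in none, against 25.7% of shared peaks. The middle S alone class stood higher, with 58.8% in at least 1 list and 11.9% in all 4. The late S alone class was near the early S alone class, with 49.9% and 7.81%. Early S peaks shared with middle S only, late S only and both were in at least 1 list at 67.5%, 59.7% and 82.7%, so each kind of sharing lay above the early S alone class.

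The difference from shared peaks remained within ranges of reads and within ranges of width, and narrowed where reads were high. Reads and width were taken 1 at a time, and values within a range still differed. Above 97 reads the medians were 121 reads for early S alone and 137 for shared peaks. Between 19 and 42 reads, 42.5% of early S alone and 62.9% of shared peaks were in at least 1 HCT116 list. Above 97 reads the values were 72.1% of 1163 and 88.2% of 13355 peaks. In 5 of 5 read classes and 5 of 5 width classes the early S alone share was below the shared share, at ratios of 0.677 to 0.818 by reads and 0.655 to 0.763 by width. Against middle S alone peaks it was also lower in 5 of 5 width classes, at 0.824 to 0.870. Against late S alone peaks it was lower in 2 of 5, at 0.883 to 1.09, which gives no uniform direction.

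**Figure D3:**
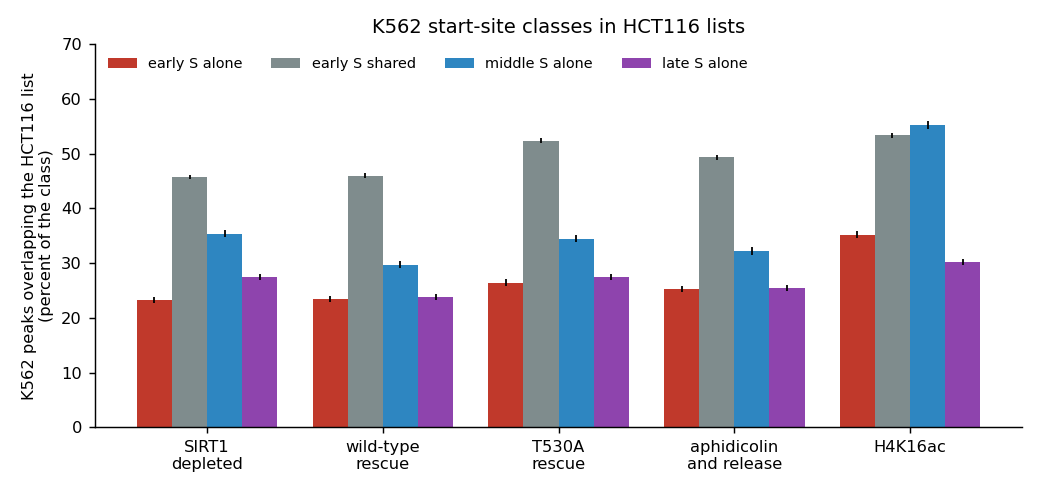
Percent of each K562 start-site class (vertical axis) that overlaps each HCT116 nascent-strand list or H4K16ac by at least 1 bp; bars are 1 library each and error bars are 95% Wilson intervals for counting error. Early S alone bars lie at 23.2 to 26.4% for nascent strands, about the level of late S alone except in the SIRT1-depleted list, and at 35.2% for H4K16ac.

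Between the SIRT1-depleted and wt rescue lists the early S alone class had no lean in one direction, while the later classes did. Of early S alone peaks, 2162 met the depleted list without the wt rescue list and 2212 the reverse, a ratio of 0.977. It was 0.986 for shared peaks, 1.54 for middle S alone and 1.36 for late S alone. The direction for the early S alone class depends on 2 chromosomes. Without chromosomes 5 and 21, a choice made after seeing the data, the numbers were 2008 and 1787, a ratio of 1.12, and the other classes gave 1.10, 1.71 and 1.64. Leaving these chromosomes out moved the overlap with the wt rescue list from 23.5 to 21.99% and with T530A from 26.4 to 25.03%, and left the depleted list at 23.2%. Early S alone and shared peaks changed places between the settings, and both stayed below middle S alone and late S alone peaks. The role of list length and peak width in these numbers was not tested.

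H4K16ac of HCT116 marked 7095 early S alone peaks (35.2%, 34.5 to 35.8). The share was 53.3% of shared peaks and 48.3% of all early S peaks, 55.3% of middle S alone and 30.2% of late S alone peaks. The early S alone class was thus 18.1 percentage points below shared peaks as a whole and 4.95 above late S alone peaks. By kind of sharing, H4K16ac marked 32.9% of early S peaks shared with late S only. It marked 56.8% of those shared with middle S only and 60.9% of those shared with both. Sharing with late S only thus lay below the early S alone class. The difference from late S alone peaks kept its direction in 5 of 5 width classes, at ratios of 1.08 to 1.40. Against shared peaks it was lower in 5 of 5 width classes (0.687 to 0.800) and 5 of 5 read classes (0.736 to 0.963). In the class above 97 reads the shares were 73.9% and 76.7%, the closest of all. Within 5 kb of an H4K16ac region lay 58.9% of early S alone peaks, against 71.0% of shared peaks and 67.6% of all early S peaks. H4K16ac was measured in HCT116 and not in K562, so it is the mark at the matching place in another cell line.

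Use in HCT116 and H4K16ac in HCT116 went together among the early S alone peaks, as they did in the other classes. Of the 10448 in no HCT116 nascent-strand list 18.8% overlapped H4K16ac, and of the 1415 in all 4 lists 83.0% did. In between the shares were 39.3% with 1 list, 50.4% with 2 and 63.8% with 3. From no list to all 4 the share went from 21.1 to 85.8% over all early S peaks and from 12.6 to 79.8% of late S alone peaks. Read from the other side, 72.3% of members with H4K16ac were in at least 1 HCT116 list and 35.1% of members without it, against 85.7 and 49.9% over all early S peaks. Median early S reads of the members rose over these steps, from 47 with no list to 59 with all 4, and their median width from 1600 to 2000 bp. Proteins bound in K562 followed the same steps. Late S pSIRT1 in K562 overlapped 6.70% of peaks in no HCT116 list and 59.0% of peaks in all 4, and G2 pMCM2 overlapped 6.73% and 43.3%. Over all early S peaks these values were 7.91 and 69.6% for late S pSIRT1 and 11.3 and 70.7% for G2 pMCM2.

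The 2 proteins mapped in HCT116 were also found at smaller shares of early S alone peaks than of shared or middle S alone peaks, and at about the share of late S alone peaks. HCT116 pSIRT1 overlapped 3742 early S alone peaks (18.5%), against 33.0% of shared peaks and 29% of all early S peaks, and 33.7% of middle S alone and 18.04% of late S alone peaks. HCT116 pMCM2 overlapped 4378 (21.7%), against 37.9% of shared peaks and 33.5% of all, and 33.7% and 21.7% of the other 2 classes. Shared peaks that met late S only stood at 18.9% for HCT116 pSIRT1 and 24.5% for HCT116 pMCM2. Within 5 kb of HCT116 pSIRT1 lay 38.1% of early S alone peaks (49.96% of shared, 46.7% of all), and within 5 kb of HCT116 pMCM2 49.1% (60.6% of shared, 57.5% of all). With 0 HCT116 nascent-strand lists 4.67% of early S alone peaks overlapped HCT116 pSIRT1, and with all 4 lists 74.1% did. Over all early S peaks the values were 5.41 and 70.4%.

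**Figure D4:**
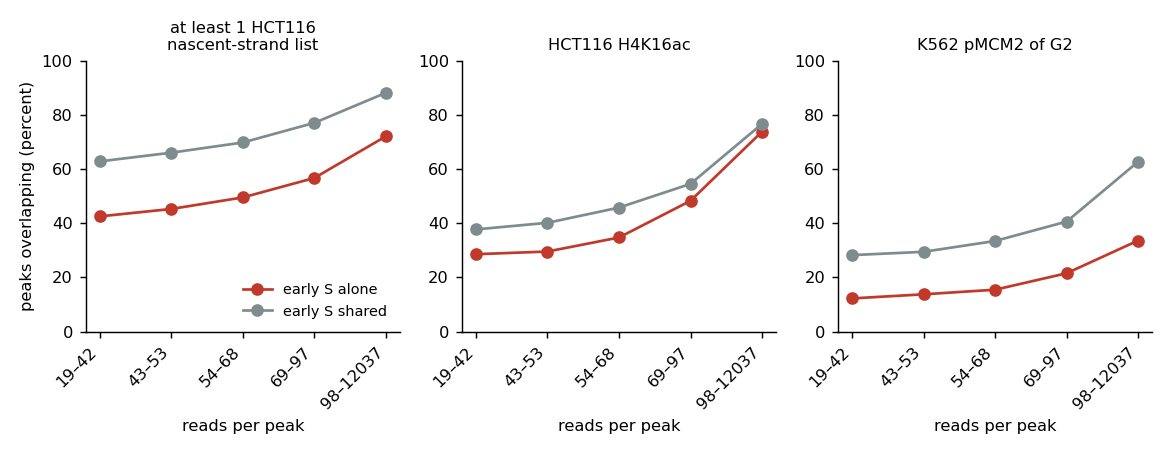
Percent of early S alone and shared K562 peaks (vertical axis) overlapping at least 1 HCT116 nascent-strand list (left), HCT116 H4K16ac (middle) and K562 pMCM2 of G2 (right), in 5 classes of early S reads per peak (horizontal axis). Both classes rise with reads; above 97 reads early S alone and shared peaks stand at 73.9 and 76.7% for H4K16ac, but at 33.6 and 62.8% for pMCM2 of G2.

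Bound pSIRT1 in K562 was farther from early S alone peaks than from shared peaks as a whole in each phase. The 5 phase lists differ in length from 25542 to 120213 regions, and the order of the phases below is that of list length, so only classes are compared. In G1, 25.8% of early S alone peaks lay within 5 kb of a pSIRT1 region, against 34.4% of shared peaks and 32% of all early S peaks. For early S pSIRT1 the values were 11.9% (11.5 to 12.4), 19.1% and 17.1%, and for middle S pSIRT1 7.61%, 11.9% and 10.7%. Late S pSIRT1 gave 40.1%, 54.4% and 50.5%, and G2 pSIRT1 gave 14.3%, 21.1% and 19.2%. The list of unfractionated cells gave 35.7%, 48.5% and 44.9%. From G1 to G2, 23.4, 14.2, 7.45, 37.2 and 15.9% of late S alone peaks lay within 5 kb. Shared peaks that met late S only gave 23.6, 13.2, 6.25, 39.1 and 14.9%. Both sets lay below the early S alone class in G1, middle S and late S, and above it in early S and G2. Middle S alone peaks stood higher in each phase, with 36.7, 18.6, 13.0, 55.2 and 21.5%. Median gaps from early S alone peaks were 17.2 kb (G1), 32.2 kb (early S), 103.6 kb (middle S), 8.6 kb (late S) and 27.8 kb (G2). The G2 and middle S lists were deposited with decimal scores, unlike the others.

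By direct overlap, early S alone peaks also met pSIRT1 at a smaller share than shared peaks as a whole in each phase. Early S pSIRT1 overlapped 481 early S alone peaks (2.38%, 2.18 to 2.60), against 9.20% of shared peaks and 7.33% of all early S peaks. Middle S alone and late S alone peaks overlapped the same early S list at 7.81% and 4.93%. The ratio of the early S alone share to the shared share was 0.259 for early S pSIRT1, with 0.478 (G1), 0.317 (middle S), 0.5005 (late S) and 0.310 (G2) beside it. In percentage points the gaps were -6.82 (early S), -10.1 (G1), -4.47 (middle S), -17.2 (late S) and -6.85 (G2), so no phase stands first on both measures. Early S pSIRT1 regions were the narrowest, with a median width of 400 bp, and covered 22.98 Mb. Against late S alone peaks the early S alone share was lower in 5 of 5 width classes for early S pSIRT1 (0.317 to 0.754) and for G2 pSIRT1 (0.360 to 0.888). For the other 3 fractions, G1, middle S and late S, the width classes split, with 2, 3 and 2 of 5 below. The overlap counts were 1865 for G1 (9.24%, 16.6% of all early S peaks) and 418 for middle S (2.07%, 5.31% of all). They were 3486 for late S (17.3%, 29.8% of all) and 620 for G2 (3.07%, 8.04% of all). Unfractionated pSIRT1 overlapped 2784 (13.8%, 23.8% of all). From G1 to G2, late S alone peaks overlapped pSIRT1 at 9.39, 4.93, 3.02, 17.2 and 5.35%. Shared peaks that met late S only did so at 9.53, 3.98, 1.99, 17.9 and 4.44%. Both sets were near the early S alone class in G1 and late S, and above it in early S and G2.

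pMCM2 was likewise farther from early S alone peaks than from shared peaks as a whole in each phase. Early S pMCM2 lay within 5 kb of 17.9% of early S alone peaks (17.4 to 18.5), against 27.5% of shared peaks and 24.9% of all early S peaks. For middle S pMCM2 the values were 17.5%, 33.7% and 29.2%, and for late S pMCM2 19.2%, 32.8% and 29.1%. G2 pMCM2 gave 37.3%, 59.3% and 53.3%. G1, with the shortest list of 24359 regions, gave 10.8%, 16.4% and 14.9%. Median gaps from early S alone peaks were 48.6 kb (G1), 26.2 kb (early S), 29.2 kb (middle S), 23 kb (late S) and 9.4 kb for G2, whose list has 82751 regions. Late S alone peaks were near the early S alone class, with 10.2, 17.6, 17.6, 19.7 and 39.6% within 5 kb from G1 to G2. Middle S alone peaks stood higher, with 15.8, 25.7, 26.5, 26.8 and 50.2%. Shared peaks that met late S only had 10.8, 18.4, 20.9, 22.2 and 45.3%, between the early S alone class and shared peaks as a whole.

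By direct overlap, pMCM2 met 656 early S alone peaks in G1 (3.25%, 6.85% of all early S peaks), 1191 in early S (5.90%, 12% of all) and 1321 in middle S (6.55%, 17.3% of all). Late S pMCM2 met 1308 (6.48%, 15.5% of all) and G2 pMCM2 met 3167 (15.7%, 34% of all). Relative to shared peaks the ratio lay between 0.305 and 0.414 over the 5 phases. In each read class the early S alone share of G2 pMCM2 was below the shared share, at ratios of 0.433 to 0.536. For early S pMCM2 the ratios in read classes were 0.577 to 0.697, against 0.414 over all peaks. For H4K16ac they were 0.736 to 0.963, against 0.660 over all peaks, and the value of 0.963 is that of the class above 97 reads only. Against late S alone peaks G2 pMCM2 was lower in 5 of 5 width classes, at 0.797 to 0.963. For pMCM2 of G1, early S, middle S and late S the width classes split, with 4, 3, 3 and 4 of 5 below.

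**Figure D5:**
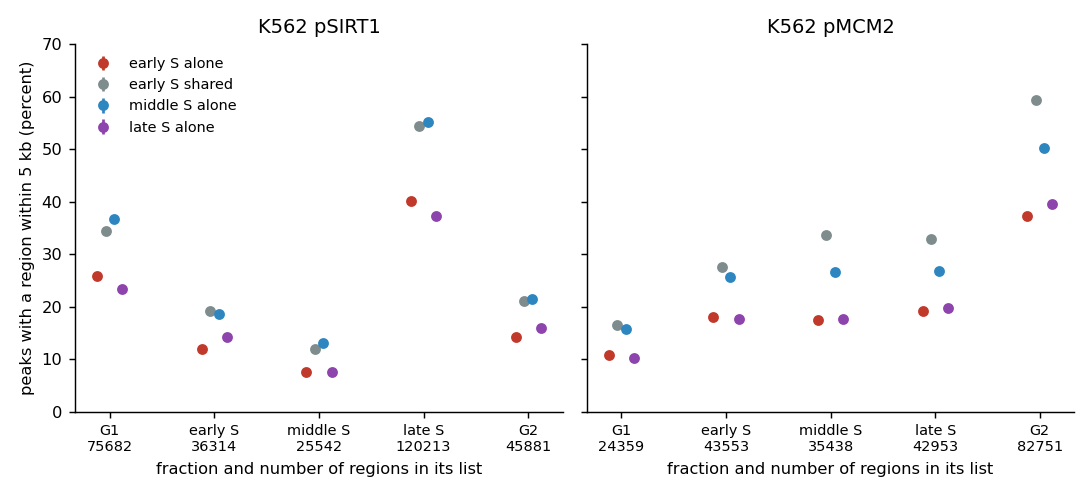
Percent of each K562 start-site class within 5 kb of a pSIRT1 (left) or pMCM2 (right) region (vertical axis), by cell cycle phase with the number of regions in each list under its name; bars for the 95% Wilson intervals are shorter than the points. Early S alone points lie below shared and middle S alone points in each phase and close to late S alone points, with 37.3 and 39.6% for pMCM2 of G2.

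Taking the 5 phases of each protein together, 4551 early S alone peaks (22.6%) overlapped pSIRT1 in at least 1 phase, against 41.1% of shared peaks and 36% of all early S peaks. For pMCM2 the number was 5039 (24.98%), against 52.1% and 44.6%. Both proteins met 2589 early S alone peaks (12.8%), against 33.3% of shared peaks, 27.7% of all early S peaks and 13.9% of late S alone peaks. Neither met 13173 (65.3%), against 40.1%, 47.1% and 64.6%. The early S alone class was thus near late S alone peaks in both counts. pSIRT1 in all 5 phases was found at 74 members (0.367%, 2.37% of all early S peaks, 1.49% of late S alone peaks). pMCM2 in all 5 phases was found at 47 (0.233%, against 1.497% and 0.390%). Binding was concentrated where HCT116 carried H4K16ac, in this class as in the others. With H4K16ac 47.2% of early S alone peaks overlapped pSIRT1 and 46.5% pMCM2, and without it 9.20% and 13.3%. Over all early S peaks the values were 60.1 and 67.2% with H4K16ac and 13.5 and 23.5% without it. Late S alone peaks gave 51.5 and 55.2% with it and 9.16 and 15.2% without it. A group of 7416 early S alone peaks (36.8%) overlapped none of the 4 HCT116 nascent-strand lists, HCT116 H4K16ac and K562 pSIRT1 or pMCM2 of the 5 phases. The same held for 15.8% of shared peaks, 21.6% of all early S peaks and 38.3% of late S alone peaks, so the share was near that of late S alone peaks.

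The members with most reads were a mixed group. The highest was chr10:127580001-127597800, 17800 bp wide with 1241 reads. It overlapped H4K16ac and both HCT116 binding lists, but none of the 4 HCT116 nascent-strand lists, and a late S peak lay 1.2 kb away. The second, chr10:70300401-70325000, held 1028 reads and met 3 HCT116 lists, with the wt rescue list missing. The third, chr11:62353001-62372800, held 772 reads and met all 4, with pSIRT1 in 4 phases and pMCM2 in 4. Of the 10 members with most reads, 5 met all 4 HCT116 lists. These also include chr1:224683401-224699800 (612 reads), chr19:4180801-4190600 (568 reads), chr22:21496001-21505600 (539 reads) and chr10:74111201-74121400 (485 reads).

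Others among these 10 had little sign of use in HCT116. The peak chr22:16960401-16973400 with 755 reads met no HCT116 list and no H4K16ac, and its nearest middle and late S peaks were 78 and 86.2 kb away. In K562 it overlapped pMCM2 in 3 phases and pSIRT1 of unfractionated cells only. The peak chr13:92162601-92175800 with 678 reads also met no HCT116 list, and lay 1 kb from a middle S and 1.2 kb from a late S peak. The peak chr19:36065601-36070600 packed 574 reads into 5000 bp, or 114.8 reads per kb. It met 1 HCT116 list, that of SIRT1-depleted cells, with H4K16ac, pSIRT1 in 4 phases and pMCM2 in 5.

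Read density picked out narrower sites. The densest member of at least 1 kb was chr10:72464001-72465000, with 150 reads in 1000 bp. It met all 4 HCT116 lists, H4K16ac, pSIRT1 in 5 phases and pMCM2 in 4. A peak of 1800 bp on chromosome 8 with 211 reads and chr19:41931801-41934200 with 238 reads also met all 4 lists and pSIRT1 in 5 phases. The fifth by density, chr16:33423601-33425000 with 138 reads, met no list and had middle and late S peaks 1 kb away. In all, 1174 members were in all 4 HCT116 lists with H4K16ac, 369 of these also met early S pSIRT1 or early S pMCM2, and 49 met both. The 5 of these 369 with most reads were the 4 named above on chromosomes 11, 1, 19 and 22, and chr19:4196001-4203400 with 482 reads.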

How the data were processed

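Peak lists of 21 of the 23 samples were used, leaving out the 2 control libraries of randomly sheared DNA. Coordinates are hg19, and MACS and SICER are named without versions, per the submitters' processing notes. Randomly sheared DNA of each line is the control, per the labels. Which aligner and calling thresholds were used is not given in the sources used here. Extraction is described for asynchronous cultures, per the labels, while the titles name S phase fractions. The lists have no column names. The authors deposited a whole number for each region in 18 lists, taken here as read counts and not scaled for depth. Decimal values deposited by the authors for pSIRT1 in K562 middle S and in G2 were treated as a score. The deposited H4K16ac list has the MACS layout, with a score, a fold enrichment ratio and −log10 p and q values. The ratio and −log10 columns deposited by the authors were not used further.

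Rows on chromosome Y were dropped, and no peaks within a list overlapped. HCT116 pSIRT1 ends were extended by 1 bp to the 200 bp grid of the other lists. Overlap meant at least 1 shared bp, and distance was taken edge to edge. Shares carry 95% Wilson intervals. With 1 library per group no test was run, and paired or replicated analysis does not apply. The share of all early S peaks stands as background beside the counts of members in each list. Regions were named by rule: the 10 members with most reads, the 5 with most reads per kb among those at least 1 kb wide, and the 5 with most reads in all 4 HCT116 lists, H4K16ac and early S pSIRT1 or pMCM2. The same rule took the 5 bins with most members, the 5 with highest and 5 with lowest share among bins of at least 20 early S peaks, and 2 members and 2 non-members nearest the threshold. Other regions in the closing section were chosen after their values were seen. Members and lists were chosen with earlier results of these data known. No hg19 annotation was used here, so no genes are named. The overlap and distance steps passed 5 of 5 checks on simulated data. Python 3.11.15, numpy 2.4.6, pandas 2.3.3, scipy 1.17.1 and matplotlib 3.10.9 were used.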

Additional observations from a re-analysis of the deposited data

How the results depend on the processing

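No paired analysis was possible because each group has 1 library. In 40 of 40 alternatives the ratio of early S alone to shared peaks kept its direction, and 0 reversed. These include alternatives of spacing, of reads per kb and of the share in the richest bins. The direction of those 3 values depends in part on class size or on the lists the rule used, so the count is a description. Of 44 alternatives of the 8 main values, 14 stayed within the main interval (for the number of peaks, within 1.5 times). Overlap alternatives were applied to membership and to the second list alike. The rest moved as follows. Requiring 50% of the shorter peak gave 45.3% in at least 1 HCT116 list and 30.9% with H4K16ac. Counting peaks within 1 kb as overlapping gave 50.9% and 40.001%, a spacing of 40.4 kb and 15.5% in the richest bins. Early S peaks with at least the list's median reads left 5717 members, with 58.1% in an HCT116 list, 49.3% with H4K16ac, 14.8% near early S pSIRT1, 23.3% near early S pMCM2, 27.3 reads per kb, a spacing of 122.8 kb and 19.8% in the richest bins. Early S peaks between the 40th and 60th percentile of width gave 32.9% with H4K16ac, 11.2% near pSIRT1, 17.2% near pMCM2 and 25.9 reads per kb. Using 200 bp around peak middles gave 42.0% in an HCT116 list, 19.8% with H4K16ac, 10.2% near pSIRT1 and 15.9% near pMCM2. The 20000 highest-scoring regions of the second list gave 2.87% with H4K16ac (6.77% of shared peaks), 6.41% near pSIRT1 and 7.56% near pMCM2. Within 1 kb in place of 5 kb the values were 4.02% for pSIRT1 and 8.19% for pMCM2, and within 20 kb 36.3% and 43.3%. Leaving out chromosomes 5 and 21, chosen after seeing the data, gave 47.1% in an HCT116 list. Why a value moved was not tested beyond the change in the members or regions counted. Depth outside peaks is unknown and calling thresholds are not stated, so absence from a list is not absence of use.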

Other observations

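Long runs of successive early S alone peaks, with no shared early S peak between them, lay in places of several kinds. The longest held 10 peaks over chr9:79199201-80233000, with 23 to 97 reads each. Of these, 6 overlapped HCT116 H4K16ac and 7 an HCT116 nascent-strand list, but 0 overlapped G2 pMCM2. A run of 9 peaks, chr12:112006201-112310200, spanned 304 kb with 0 middle S and 3 late S peaks inside. Another run, chr2:164573801-164785200, packed 9 peaks into 211.4 kb with 3 middle S and 6 late S peaks inside, and none of its 9 peaks met H4K16ac. In chr17:12529201-14077000 the 9 peaks spread over 1547.8 kb with 11 late S peaks between them. A run of 8 in chr2:185548201-185767400 met no HCT116 nascent-strand list, no H4K16ac, no G2 pMCM2 and no late S pSIRT1, and had 0 middle S and 7 late S peaks inside.

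Where early S pSIRT1 did overlap an early S alone peak, early S pMCM2 was present at a smaller share than among shared peaks. It met 108 of 481 such members (22.5%, 19.0 to 26.4) and 2068 of 4889 such shared peaks (42.3%, 40.9 to 43.7), or 40.5% of all early S peaks with early S pSIRT1. Late S alone peaks with early S pSIRT1 gave 365 of 1341 (27.2%, 24.9 to 29.7), an interval that overlaps that of the members. Whether or not pSIRT1 was present, early S pMCM2 overlapped 5.90% of early S alone, 14.25% of shared and 6.31% of late S alone peaks. The base share of early S pMCM2 thus differed between the classes as well. Over all phases, 56.9% of early S alone peaks with pSIRT1 also overlapped pMCM2, against 81.1% of shared peaks, 76.9% of all early S peaks and 63.2% of late S alone peaks with pSIRT1. Without pSIRT1 the shares were 15.7%, 31.9%, 26.5% and 17.2%. Above 97 reads, middle S pSIRT1 overlapped 14.4% of the 1163 early S alone peaks and 17.7% of shared peaks. Early S pSIRT1 overlapped 8.77% and 19.5% of the same classes. Median region width is 2800 bp in the middle S list and 400 bp in the early S list, so only classes are compared.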
